A study of Mus musculus with 12 samples.

Results

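RNA of 10 genes was followed in 12 libraries of mouse donor T cells. The genes were chosen by symbol: 5 S100 genes (S100a4, S100a6, S100a10, S100a11 and S100a13), the galectin genes Lgals1 and Lgals3, the annexin genes Anxa1 and Anxa2, and Ahnak. They are 10 of 35907 genes to which the transcripts of the libraries were matched. The libraries fall into 4 groups of 3: TCF-1 cKO Post-Tx, WT Post-Tx, TCF-1 cKO Pre-Tx and WT Pre-Tx. TCF-1 cKO mice carry a floxed Tcf7, the gene of the transcription factor TCF-1, and a Cre recombinase driven by the Cd4 promoter, so that both CD4 and CD8 T cells lose TCF-1 from the double-positive stage of the thymus onward. WT mice are C57Bl/6 mice without this deletion. Pre-Tx libraries come from splenic donor T cells sorted before transplant. Post-Tx libraries come from donor T cells that were given to lethally irradiated BALB/c recipients and sorted back from their spleens at day 7. The study lists H2Kb, the donor marker, with CD3, CD4 and CD8 for this sort. These groups therefore share irradiation of the host, an allogeneic host and the sort by a donor marker. The transplants of the study also gave T cell-depleted bone marrow of WT C57Bl/6 mice, which is H2Kb as well. The part of cells from that marrow in the values below was not tested. The mice of the study were 8 to 12 weeks old. The labels call all samples CD4 T cells, while the methods of the study name CD8 T cells for the sort at day 7. The replicates are labelled biological, and the series text speaks of 3 different mice for Pre-Tx. The legend of the study for these libraries counts mice per condition, in a range that does not say whether each Post-Tx library is 1 recipient or a pool, and the RNA sequencing was carried out once, so p values measure only the spread between these samples, which may be partly technical.

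S100 proteins are small calcium-binding proteins that bind and alter other proteins. Annexins bind membrane phospholipids when calcium rises, and take part in membrane repair, vesicle traffic and the resolution of inflammation. Galectins bind sugars of the beta-galactoside kind on cell surface proteins, and galectin-1 and galectin-3 can be secreted and act on T cells from outside. In T cells, transcripts of these families are low in naive cells and high in effector and memory cells, and they are often used as markers of that state in single-cell studies.

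The contents of the libraries bear on every value below. Libraries of TCF-1 cKO Post-Tx had 18022093 to 23098887 counts, those of WT Post-Tx 27109156 to 49486745, those of TCF-1 cKO Pre-Tx 20183939 to 25756488 and those of WT Pre-Tx 17103415 to 19691807. Cd4 was at 263 to 324 TPM (transcripts scaled to length and to the total over all genes) in TCF-1 cKO Post-Tx, against 413 to 454 TPM in WT Post-Tx. Cd8a was at 3.78 to 7.09 TPM in TCF-1 cKO Post-Tx, against 0.416 to 2.67 TPM in WT Post-Tx, so that Cd4 was far above Cd8a in every Post-Tx library. In TCF-1 cKO Pre-Tx the ranges of both genes overlapped, at 28.3 to 47.0 TPM for Cd4 and 35.1 to 41.1 TPM for Cd8a. In WT Pre-Tx Cd8a stood above Cd4 in every library, at 53.8 to 76.7 TPM, against 19.9 to 51.1 TPM for Cd4. Cd8a was lower in TCF-1 cKO Pre-Tx than in WT Pre-Tx (log2 fold change -1.02, adjusted p = 0.0154, edgeR's quasi-likelihood test). Tcf7 itself did not pass the test between the genotypes at either stage (log2 fold change -0.66, adjusted p = 0.0669 Post-Tx, and -0.04, adjusted p = 0.924 Pre-Tx, edgeR's quasi-likelihood test). The values count whole transcripts, so they do not check the loss of the floxed part, and each direction given for a genotype rests on the labels. All 12 B cell markers were measured in the Pre-Tx libraries and summed to 33060 to 35700 CPM (counts scaled to the library total) in TCF-1 cKO, against 31780 to 35240 CPM in WT. The 10 T cell markers summed there to 1491 to 1723 CPM in TCF-1 cKO, against 2981 to 3523 CPM in WT. The Pre-Tx libraries therefore go against a label of purified CD4 T cells, and Pre-Tx values below describe mixed cells. After transplant the B cell markers summed to 1066 to 1322 CPM in TCF-1 cKO, against 663 to 842 CPM in WT, and the T cell markers to 6207 to 6568 CPM in TCF-1 cKO, against 8280 to 9855 CPM in WT. Fewer cells of a type and less RNA per cell cannot be told apart in such libraries.

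All 5 S100 genes lie on chromosome 3 (coordinates of GENCODE M21 on GRCm38, as are those that follow). S100a13 (90514435 to 90524581), S100a4 (90603771 to 90606045) and S100a6 (90612882 to 90624181) stand close together on the plus strand, and S100a11 (93520488 to 93526287) and S100a10 (93555080 to 93564643) form another pair downstream, also on the plus strand. S100a1, on the minus strand directly beside S100a13, was at 13.1 TPM or more in every library. S100a5, which lies between S100a4 and S100a6, reached at most 1.78 TPM in TCF-1 cKO Post-Tx libraries and 4.32 TPM in WT Post-Tx libraries. S100a8 and S100a9, which neutrophils express and which lie beyond S100a6, were at 792 to 2367 TPM and 557 to 1645 TPM in TCF-1 cKO Post-Tx, and at 852 to 1027 TPM and 545 to 1408 TPM in WT Post-Tx. Anxa1 and Ahnak lie on chromosome 19 (20373428 to 20390944, minus strand, and 8989284 to 9076914, plus strand), Anxa2 on chromosome 9 (69453620 to 69491795, plus strand), Lgals1 on chromosome 15 (78926725 to 78930465, plus strand) and Lgals3 on chromosome 14 (47367751 to 47386160, plus strand). Of the 10 genes, 1 overlaps another measured gene on its own strand: S100a4 overlaps Gm42674, which stayed under 1 TPM in every library. The processed pseudogenes S100a11-ps, Lgals1-ps1 and Lgals1-ps2 had at most 17, 6 and 1 counts in any library.

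The promoters of members that moved together are shown because TCF-1 binds DNA at a TCF/LEF core and AP-1 is a factor of T cell activation. RefSeq windows of the GRCm38.p6 assembly, 250 bases before the RefSeq start of the gene, were found for 8 of the 10 members (S100a4, S100a6, S100a11, S100a13, Lgals3, Anxa1, Anxa2 and Ahnak). The RefSeq start is not always the GENCODE start given above. The windows of Lgals3 (47373610 to 47373859) and Anxa1 (20390672 to 20390921) lie inside the genes as GENCODE draws them. Those of S100a6, S100a11 and Anxa2 end at 90612893, 93520495 and 69453682, past the GENCODE start of each. The TCF/LEF core was searched as CTTTGA or CTTTGT and AP-1 as TGANTCA, on both strands, and the matches found do not overlap. Of these 8 windows, 1 held a TCF/LEF core (S100a11, CTTTGA at -172 to -167 from the RefSeq start) and 2 held AP-1 (S100a11 at -136 to -130 and at -38 to -32, Anxa2 at -95 to -89). Among 32851 windows of the same length, 27.6% held a TCF/LEF core and 6.75% held AP-1. The windows of S100a4 and S100a6, neighbours on the chromosome that were both lower in TCF-1 cKO after transplant, and of S100a11 and Anxa2, which hold motifs, follow here up to the base before the GENCODE start. Capitals mark the motifs.
S100a4, chr3:90603520-90603769, plus strand: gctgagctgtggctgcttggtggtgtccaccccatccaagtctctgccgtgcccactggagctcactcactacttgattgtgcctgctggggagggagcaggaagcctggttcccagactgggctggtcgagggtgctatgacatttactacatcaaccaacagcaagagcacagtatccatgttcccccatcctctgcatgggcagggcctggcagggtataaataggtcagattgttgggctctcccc
S100a6, chr3:90612644-90612881, plus strand: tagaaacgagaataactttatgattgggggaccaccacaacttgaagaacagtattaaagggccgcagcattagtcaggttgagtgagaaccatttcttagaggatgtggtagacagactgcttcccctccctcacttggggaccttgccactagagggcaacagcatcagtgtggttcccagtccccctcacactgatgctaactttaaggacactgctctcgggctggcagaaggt
S100a11, chr3:93520246-93520487, plus strand: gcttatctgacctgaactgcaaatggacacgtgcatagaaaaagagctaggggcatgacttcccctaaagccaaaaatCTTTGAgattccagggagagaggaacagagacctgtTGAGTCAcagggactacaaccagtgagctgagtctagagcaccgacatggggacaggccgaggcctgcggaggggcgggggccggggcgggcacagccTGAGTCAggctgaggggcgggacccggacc
Anxa2, chr9:69453433-69453619, plus strand: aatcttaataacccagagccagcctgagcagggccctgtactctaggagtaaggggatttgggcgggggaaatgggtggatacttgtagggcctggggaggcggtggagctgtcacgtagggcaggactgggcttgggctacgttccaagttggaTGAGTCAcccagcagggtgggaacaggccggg

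Per length, most of the 10 genes were abundant in the Post-Tx libraries, and Anxa1 and Ahnak were the least so. Their TPM summed to 11320 ± 1003 in TCF-1 cKO Post-Tx, against 15180 ± 1291 in WT Post-Tx (SD, n = 3 each), which is 1.13% and 1.52% of all TPM. The sum was 2428 ± 121 TPM in TCF-1 cKO Pre-Tx, against 2248 ± 131 TPM in WT Pre-Tx (SD, n = 3 each). Lgals1, which encodes galectin-1, stood first in both Post-Tx groups, with a mean of 3639 TPM in TCF-1 cKO, against 4409 TPM in WT, at rank 25 and rank 19 of all genes. The next 5 places were held by S100a10, S100a6, S100a11, S100a4 and Anxa2 in TCF-1 cKO Post-Tx, and their ranges over libraries overlapped from each to the next. In WT Post-Tx the same 5 genes followed in the order S100a6, S100a10, S100a11, S100a4 and Anxa2, with overlapping ranges down to S100a4, while the lowest S100a4 library (1665 TPM) stood above the highest Anxa2 library (1614 TPM). Lgals3, S100a13, Anxa1 and Ahnak came after them in this order in both Post-Tx groups, with ranges that did not overlap. In the Pre-Tx groups the order was another one. S100a11 stood first with a mean of 717 TPM in TCF-1 cKO, against 647 TPM in WT, followed by S100a10 with 530.2 and 436 TPM and Lgals1 with 329 and 404 TPM. S100a4 was only at place 7 in TCF-1 cKO Pre-Tx (86.7 TPM) and at place 8 in WT Pre-Tx (97.5 TPM). Ahnak, whose transcript is by far the longest of the 10, stood last in all 4 groups.

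**Figure D1:**
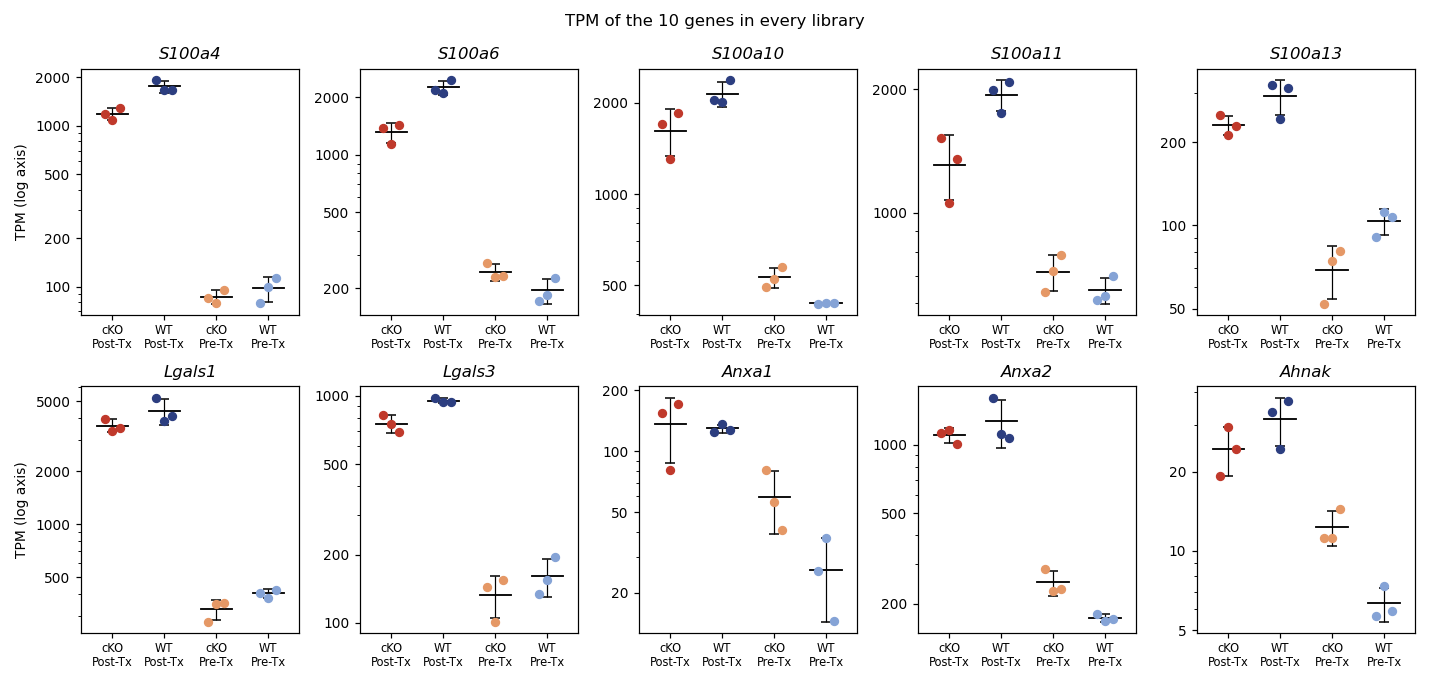
TPM of each gene (log axis, a separate scale for each panel) in each library of the 4 groups, with the group mean as a bar and 1 SD as whiskers (n = 3). Lgals1 reaches 3389 to 3990 TPM in TCF-1 cKO Post-Tx, against 3872 to 5243 TPM in WT Post-Tx, and every Post-Tx library of S100a4 lies above every Pre-Tx library.

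In WT cells all 10 genes rose after transplant, and in TCF-1 cKO cells 7 of the 10 rose and none fell. Among 21434 genes tested, 14.2% rose and 12.5% fell in TCF-1 cKO, and 11.6% rose and 10.4% fell in WT (edgeR's quasi-likelihood test over 12 libraries, adjusted p under 0.05). The median log2 fold change in TCF-1 cKO was 1.46 over the 10 genes and 0.36 over all genes tested, and in WT it was 2.33 over the 10 genes and -0.41 over all genes tested. Among 9191 protein-coding genes with a mean of at least 10 CPM, as all members are, these medians had the other sign: -0.40 in TCF-1 cKO, where 9.86% rose, against 0.32 in WT, where 24.5% rose. Both comparisons set mixed splenic cells against sorted donor cells that also differ in day and host, and the part of the cell mixture in them was not tested. Of the 10 T cell markers, all 10 rose in both genotypes, with medians of 1.52 in TCF-1 cKO, against 1.43 in WT.

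S100a4, an S100 protein that binds myosin and is tied to cell migration, rose most. It had 1176, 1086 and 1296 TPM in TCF-1 cKO Post-Tx, against 84.9, 79.4 and 95.9 TPM in TCF-1 cKO Pre-Tx. In WT it had 1933, 1665 and 1671 TPM Post-Tx, against 79.3, 99.7 and 114 TPM Pre-Tx. The stages did not overlap in either genotype, and the means differed 13.7-fold in TCF-1 cKO, against 18-fold in WT. On normalized counts the log2 fold change was 3.36 in TCF-1 cKO (SE, the standard error, 0.27, adjusted p = 1.46e-07, edgeR) and 3.84 in WT (SE 0.27, adjusted p = 3.57e-08, edgeR).

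Lgals1 came next in TCF-1 cKO. It had 3990, 3389 and 3537 TPM in TCF-1 cKO Post-Tx, against 280, 351 and 356 TPM in TCF-1 cKO Pre-Tx. In WT it had 5243, 3872 and 4112 TPM Post-Tx, against 405, 381 and 425 TPM Pre-Tx. Again no Post-Tx library came near a Pre-Tx library, and the log2 fold change was 3.03 in TCF-1 cKO, against 3.12 in WT (SE 0.25 in both genotypes), with an interaction that did not pass (adjusted p = 0.849, edgeR). Lgals3, which encodes galectin-3, a galectin that macrophages also express, rose by a log2 fold change of 2.0 in TCF-1 cKO, against 2.18 in WT. It had 823, 749 and 692 TPM in TCF-1 cKO Post-Tx, against 144, 101 and 155 TPM in TCF-1 cKO Pre-Tx. WT libraries had 982.5, 941 and 940 TPM Post-Tx, against 134, 154 and 194 TPM Pre-Tx, so that the stages stood apart in both genotypes here too.

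S100a6, a close relative of S100a4, had 1380, 1138 and 1431 TPM in TCF-1 cKO Post-Tx, against 271, 228 and 231 TPM in TCF-1 cKO Pre-Tx. In WT it had 2177, 2120 and 2476 TPM Post-Tx, against 172, 185 and 227 TPM Pre-Tx. The stages stood apart in both genotypes, with log2 fold changes of 1.96 in TCF-1 cKO (adjusted p = 1.35e-05, edgeR) and 3.10 in WT (adjusted p = 1.13e-07, edgeR). Anxa2 and S100a10 encode annexin A2 and its light chain partner, which bind each other at the membrane. Anxa2 rose by 1.64 in TCF-1 cKO, against 2.48 in WT, and S100a10 by 1.16 in TCF-1 cKO, against 1.95 in WT, all on the log2 scale. Anxa2 had 1131, 1163 and 1010 TPM in TCF-1 cKO Post-Tx, against 284, 228 and 232 TPM in TCF-1 cKO Pre-Tx. WT libraries had 1614, 1115 and 1075 TPM Post-Tx, against 180, 168 and 171 TPM Pre-Tx, with the first Post-Tx library above the other 2. S100a10 had 1704, 1303 and 1852 TPM in TCF-1 cKO Post-Tx, against 494, 523 and 574 TPM in TCF-1 cKO Pre-Tx. The WT libraries had 2039, 2008 and 2387 TPM Post-Tx, against 435, 438 and 436 TPM Pre-Tx. Neither gene had a Post-Tx library near a Pre-Tx library. S100a13, an S100 gene linked to the release of proteins without a signal peptide, rose by 1.27 in TCF-1 cKO, against 1.16 in WT. It had 250.1, 213 and 230 TPM in TCF-1 cKO Post-Tx, against 52.2, 74.6 and 81.0 TPM in TCF-1 cKO Pre-Tx. The WT libraries had 322, 243 and 313 TPM Post-Tx, against 91.1, 112 and 107 TPM Pre-Tx.

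Anxa1, Ahnak and S100a11 passed the test in WT but not in TCF-1 cKO. That contrast is not itself a test between the genotypes. The test of the interaction, given below, did not pass for S100a11 as reported, and passed in 6 of 20 alternatives. Ahnak, a very large scaffold protein that binds the annexin A2 complex and calcium channels, had 19.2, 29.5 and 24.4 TPM in TCF-1 cKO Post-Tx, against 11.2, 11.2 and 14.5 TPM in TCF-1 cKO Pre-Tx. In WT it had 33.6, 24.3 and 37.0 TPM Post-Tx, against 5.66, 7.37 and 5.92 TPM Pre-Tx. Its log2 fold change was 0.56 in TCF-1 cKO (SE 0.27, adjusted p = 0.119, edgeR) and 3.20 in WT (SE 0.29, adjusted p = 6.13e-07, edgeR). The libraries of the stages did not overlap in either genotype, on TPM or on normalized counts. In TCF-1 cKO, 42.2% of all genes tested also stood higher in every Post-Tx library on TPM, and 30.1% on normalized CPM. Anxa1, which encodes the anti-inflammatory annexin A1, had 154, 81.2 and 172 TPM in TCF-1 cKO Post-Tx, against 81.2, 56.4 and 40.7 TPM in TCF-1 cKO Pre-Tx, and there the lowest Post-Tx library met the highest Pre-Tx library. In WT it had 125, 136 and 128 TPM Post-Tx, against 25.6, 37.3 and 14.6 TPM Pre-Tx. S100a11 already stood high before transplant and changed least in WT but for S100a13, with log2 fold changes of 0.44 in TCF-1 cKO (adjusted p = 0.16, edgeR) and 1.26 in WT (adjusted p = 0.00116, edgeR). It had 1522, 1052 and 1354 TPM in TCF-1 cKO Post-Tx, against 642, 720 and 788 TPM in TCF-1 cKO Pre-Tx. The WT libraries had 1985, 1749 and 2079 TPM Post-Tx, against 613, 627 and 701 TPM Pre-Tx. All 10 calls in WT held in every alternative fit. In TCF-1 cKO, upper-quartile normalization, the TPM scale and a stricter filter on low counts called all 10 genes, and the other settings 7 or 8. Under upper-quartile normalization the split of all calls was 4485 higher and 1644 lower in TCF-1 cKO, against 3037 and 2676 as reported, and 1852 higher and 3216 lower in WT, against 2483 and 2223.

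**Figure D2:**
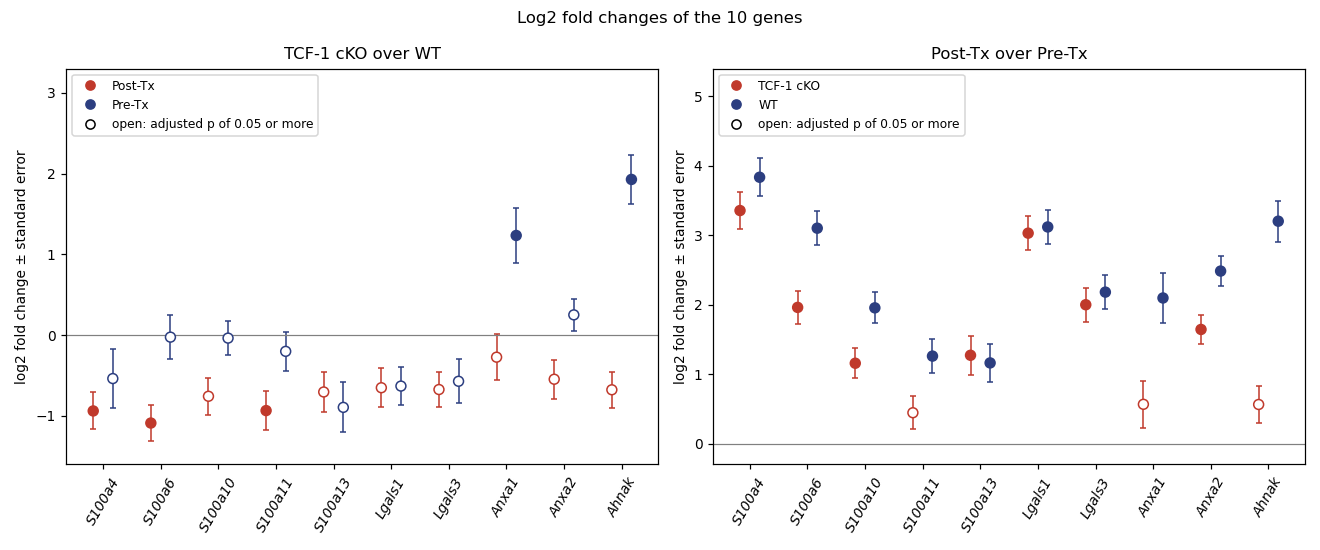
Log2 fold change (y axis, whiskers 1 standard error) of each gene between the genotypes (left, red for Post-Tx and blue for Pre-Tx) and between the stages (right, red for TCF-1 cKO and blue for WT), from edgeR, with filled points at an adjusted p under 0.05. On the right all 10 WT points and 7 of 10 TCF-1 cKO points are filled, and Ahnak shows the widest gap, with 0.56 in TCF-1 cKO, against 3.20 in WT.

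After transplant, the genotype comparison asks how loss of TCF-1 changes donor T cells that have met the host. S100a6, S100a4 and S100a11 were lower in TCF-1 cKO, and no member was higher. Among 19287 genes tested, 3.13% were lower and 3.52% were higher in TCF-1 cKO (edgeR's quasi-likelihood test over 6 libraries, adjusted p under 0.05). Among 9189 protein-coding genes with a mean of at least 10 CPM, 6.12% were lower and 3.32% were higher. Of these genes, 77.65% had a log2 fold change below 0. All 10 members had a log2 fold change below 0, with a median of -0.69 against 0.09 over all genes tested. The other 7 lay between -0.76 for S100a10 and -0.27 for Anxa1 and did not pass, with adjusted p values from 0.0543 to 0.5.

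S100a6 had the largest difference. Its normalized CPM were 417, 353 and 413 in TCF-1 cKO Post-Tx, against 910.4, 675 and 929.6 in WT Post-Tx. Every TCF-1 cKO library stood below every WT library, with a log2 fold change of -1.09 (SE 0.22, adjusted p = 0.0208, edgeR). S100a4 had 253, 240.2 and 269.6 normalized CPM in TCF-1 cKO Post-Tx, against 605, 387 and 469 in WT Post-Tx (log2 fold change -0.94, SE 0.23, adjusted p = 0.0301, edgeR). S100a11 had 343, 242 and 295 normalized CPM in TCF-1 cKO Post-Tx, against 646, 424 and 609 in WT Post-Tx (log2 fold change -0.93, SE 0.24, adjusted p = 0.0341, edgeR). In both genes the groups stood apart, and WT replicate 2 was the lowest of its group.

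Of the members that did not pass, S100a10 had 621, 461 and 646 normalized CPM in TCF-1 cKO Post-Tx, against 1018, 790.5 and 1110 in WT Post-Tx (log2 fold change -0.76, adjusted p = 0.0543, edgeR). Lgals1 had 1527, 1275 and 1306 normalized CPM in TCF-1 cKO, against 2809, 1598 and 2041 in WT (log2 fold change -0.65, adjusted p = 0.0887, edgeR). Both again had all TCF-1 cKO libraries below all WT libraries. Lgals3 had 609.5, 507 and 483 normalized CPM in TCF-1 cKO, against 927, 758 and 865 in WT (log2 fold change -0.67, adjusted p = 0.0634, edgeR). Ahnak had 231, 176 and 235 normalized CPM in TCF-1 cKO, against 362, 293.5 and 371 in WT (log2 fold change -0.68, adjusted p = 0.0675, edgeR). Anxa2 had 1188, 1100 and 988 normalized CPM in TCF-1 cKO, against 2141, 1263 and 1378 in WT (log2 fold change -0.55, adjusted p = 0.133, edgeR). In Anxa2 the first WT library stood apart from the others, and the gap between the genotypes was narrow without it. S100a13 had 97.7, 80.3 and 85.5 normalized CPM in TCF-1 cKO, against 171, 103 and 155 in WT (log2 fold change -0.70, adjusted p = 0.0742, edgeR). The order of all TCF-1 cKO libraries below all WT libraries held for 9 of the 10 members on normalized CPM, and for 17.5% of all genes tested. Anxa1 was the exception, with 183.5, 77.2 and 187 normalized CPM in TCF-1 cKO, against 166, 184 and 192 in WT, where the second TCF-1 cKO library alone was low. On the TPM scale 5 of the 10 members (S100a4, S100a6, S100a10, S100a11 and Lgals3) had all TCF-1 cKO libraries below all WT libraries, against 7.6% of all genes.

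The members are abundant and mostly short, and genes of that kind were lower in general. Over 9189 protein-coding genes with a mean of at least 10 CPM, the median log2 fold change was -0.39, and 32.8% had all TCF-1 cKO libraries below all WT libraries. Among the 643 of them with a transcript length of up to 1000 bases, where the 5 S100 genes and Lgals1 lie, the median was -0.53 and the quartiles -0.70 and -0.32. In this length class 8.87% passed as lower and 4.04% as higher. S100a4, S100a6, S100a11 and S100a10 lay below that lower quartile, S100a13 at it, and Lgals1 inside the quartiles. The T cell markers moved in the same direction: 9 of the 10 were lower in TCF-1 cKO, with a median of -0.89 and sums of 6207 to 6568 CPM in TCF-1 cKO, against 8280 to 9855 CPM in WT. Set against that sum, the counts of the 10 members together were 0.860 to 0.891 of it in TCF-1 cKO, against 0.752 to 0.799 of it in WT, so that on this scale TCF-1 cKO stood above WT. Single members, so scaled, overlapped between the genotypes in 8 of 10 cases, with S100a6 below WT and S100a13 above it. Genes of olfactory receptors took 0.447% to 1.2% of counts in TCF-1 cKO, against 0.108% to 0.313% in WT. Erythroid markers were higher in TCF-1 cKO in 5 of 7 cases (3 of 7 by DESeq2) and lower in none (median 1.52), with Hbb-bs at 1.57 and Hba-a2 at 1.45, and summed to 1658 to 5771 CPM in TCF-1 cKO, against 711 to 1483 CPM in WT. The 15 macrophage and monocyte markers, of which 0 of 14 tested passed by edgeR (2 at an unadjusted p under 0.05, and 0 higher and 1 lower by DESeq2, 0 and 1 by limma voom), summed to 2218 to 2723 CPM in TCF-1 cKO, against 1362 to 1976 CPM in WT. The 9 neutrophil markers, of which 0 passed by edgeR, DESeq2 or limma voom, summed to 795 to 1986 CPM in TCF-1 cKO, against 818 to 1793 CPM in WT. Of 8 stroma and endothelium markers 1 was higher and none lower by edgeR. They summed to 618 to 683 CPM in TCF-1 cKO, against 284 to 545 CPM in WT. The part of these sums and shares in the differences was not tested.

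The 3 calls rest on few libraries. Leaving out TCF-1 cKO replicate 2, WT replicate 1 or WT replicate 3 left 0 members called, leaving out TCF-1 cKO replicate 3 left 1, and leaving out WT replicate 2 gave 8, all lower. S100a6 passed in 12 of 15 alternatives and S100a4 and S100a11 in 6 of 15 each, and all alternatives kept these 3 below 0. Upper-quartile normalization moved the median of all genes to 0.37 and the split of all calls to 687 higher and 111 lower, against 679 and 604 as reported, and a filter at a mean of 10 CPM gave 506 higher and 77 lower. Under both, S100a6 was the only member to pass. Other settings moved the count the other way: DESeq2 called 8 members lower and limma voom 7.

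**Figure D3:**
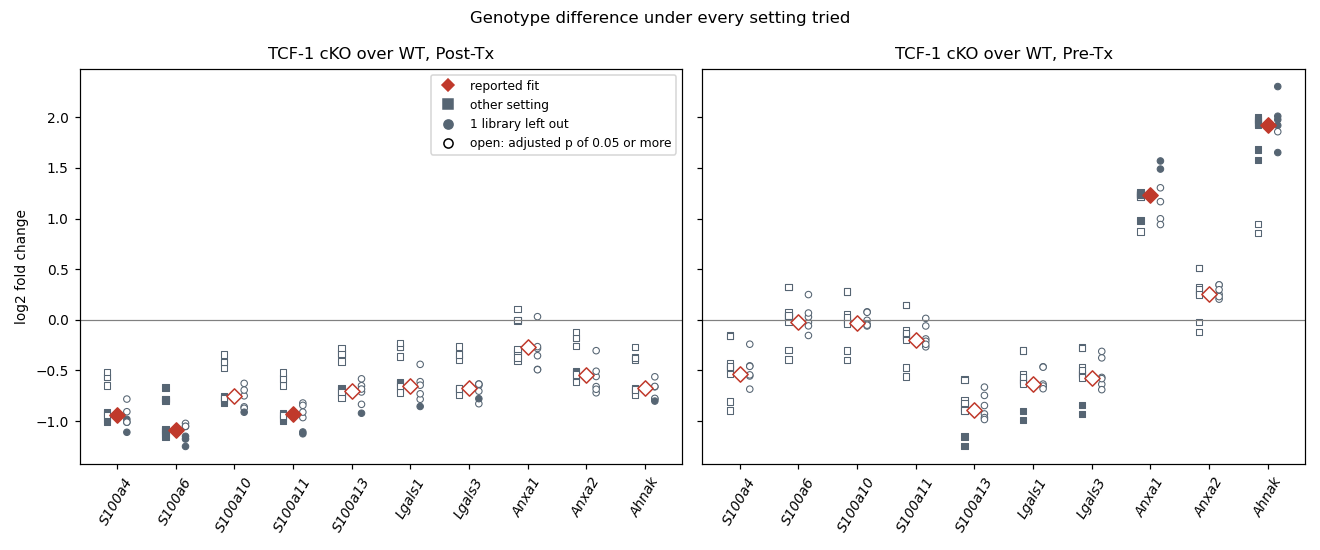
Log2 fold change of each gene between TCF-1 cKO and WT (y axis), Post-Tx on the left and Pre-Tx on the right, as reported (red diamonds), under the other settings (squares) and with 1 library left out (circles), with filled symbols at an adjusted p under 0.05. Post-Tx points of S100a6 run from -1.25 to -0.67, and Pre-Tx points of S100a6 lie on both sides of 0.

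Before transplant, only Ahnak and Anxa1 of the 10 passed the test, both higher in TCF-1 cKO. Among 17021 genes tested, 8.52% were higher and 5.65% were lower (edgeR's quasi-likelihood test over 6 libraries, adjusted p under 0.05). Of the 9186 protein-coding genes with a mean of at least 10 CPM, as all members are, 15.04% were higher and 4.039% were lower. The 10 members had a median log2 fold change of -0.12, against -0.11 over all genes tested, and 3 were above 0 and 7 below. Ahnak had 125, 116 and 111 normalized CPM in TCF-1 cKO Pre-Tx, against 27.6, 44.4 and 20.6 in WT Pre-Tx. The groups stood far apart, with a log2 fold change of 1.93 (SE 0.30, adjusted p = 0.00687, edgeR). Anxa1 had 111, 79.2 and 56.5 normalized CPM in TCF-1 cKO, against 32.2, 49.4 and 23.2 in WT. Here the lowest TCF-1 cKO library was close to the highest WT library, and the log2 fold change was 1.23 (SE 0.34, adjusted p = 0.0376, edgeR).

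The galectins and S100a13 had values below 0 that did not pass. S100a13 had 21.2, 32.4 and 33.9 normalized CPM in TCF-1 cKO Pre-Tx, against 42.7, 52.3 and 67.6 in WT Pre-Tx (log2 fold change -0.89, adjusted p = 0.0705, edgeR). Lgals1 had 112, 148 and 145 normalized CPM in TCF-1 cKO, against 185, 175 and 267 in WT (log2 fold change -0.63, adjusted p = 0.0897, edgeR). In both genes all TCF-1 cKO libraries lay below all WT libraries, as in 20.5% of all genes. Lgals3 had 114, 84.4 and 124 normalized CPM in TCF-1 cKO, against 118, 140 and 220.5 in WT (log2 fold change -0.57, adjusted p = 0.165, edgeR). S100a4 had 19.0, 19.2 and 21.9 normalized CPM in TCF-1 cKO, against 20.2, 25.6 and 41.4 in WT (log2 fold change -0.54, adjusted p = 0.319, edgeR). In both genes the libraries of the genotypes overlapped, and WT replicate 3 was the highest. Anxa2 had 319, 266.5 and 267 normalized CPM in TCF-1 cKO, against 226, 217 and 273 in WT (log2 fold change 0.25, adjusted p = 0.395, edgeR). S100a6, S100a10 and S100a11 had log2 fold changes of -0.02, -0.04 and -0.20 on counts, while on the limma fit of log2(TPM + 1) they were 0.32, 0.28 and 0.15, and none of these passed. Their direction before transplant is therefore not set by these data, nor is that of Anxa2, at 0.25 as reported and -0.12 under upper-quartile normalization.

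Transcript length moved with genotype before transplant. Transcripts shorter than 1000 bases took 17.4% to 19.3% of counts in TCF-1 cKO Pre-Tx, against 21.4% to 28.6% in WT Pre-Tx, and those over 5000 bases took 7.19% to 8.98% in TCF-1 cKO, against 4.76% to 6.31% in WT. Over protein-coding genes with a mean of at least 10 CPM, the median log2 fold change was -0.33 for lengths up to 1000 bases, 0.02 from there to 2000, 0.41 from there to 5000 and 0.69 from there to 10000. The 100 genes over 10000 bases had a median of 0.24 with quartiles at -1.47 and 1.12. Ahnak, at 17402 bases weighted by counts, lay above that upper quartile, and Anxa1, at 1641 bases, above the upper quartile of 0.63 of its own length class. The 6 members of up to 1000 bases lay between -0.89 and -0.02. Natural killer cell markers were also higher in TCF-1 cKO Pre-Tx (4 of 7 passed, none lower), at a sum of 622 to 666 CPM in TCF-1 cKO, against 190 to 295 CPM in WT, and 4 of 12 B cell markers were higher. Of the 15 macrophage and monocyte markers 4 were higher and none lower (Mrc1 2.93, Cybb 1.66, Itgam 1.49 and Ccr2 1.33), at a sum of 4011 to 4415 CPM in TCF-1 cKO, against 3628 to 4825 CPM in WT. Set against the summed T cell markers, the 10 members together were at 0.741 to 0.821 in TCF-1 cKO, against 0.314 to 0.467 in WT, and 6 of them were above WT in every library on this scale, 4 overlapped and none was below. Of 9 neutrophil markers 1 was higher and none lower by edgeR, at a sum of 863 to 1799 CPM in TCF-1 cKO, against 664 to 1008 CPM in WT. Stroma and endothelium markers, of which 1 of 8 was higher and none lower by edgeR, summed to 415 to 595 CPM in TCF-1 cKO, against 148 to 244 CPM in WT. The part of length or of these cells in the Ahnak and Anxa1 values was not tested.

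**Figure D4:**
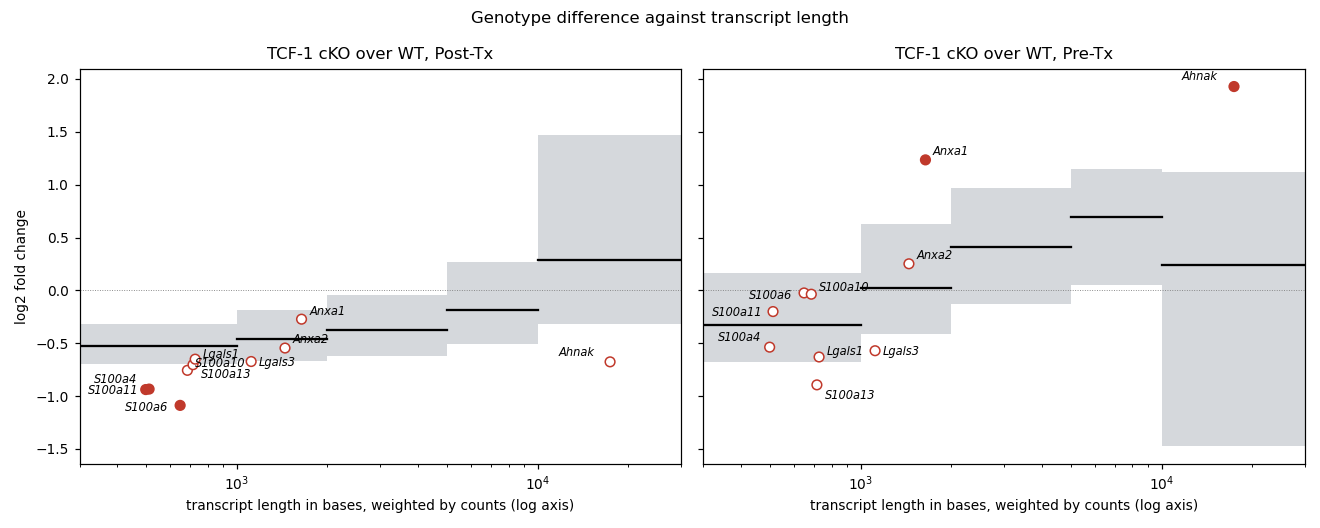
Log2 fold change between TCF-1 cKO and WT (y axis) against transcript length weighted by counts (x axis, log scale), Post-Tx on the left and Pre-Tx on the right, with the 10 genes as points (filled at an adjusted p under 0.05) and the median (line) and quartiles (grey) of protein-coding genes of a mean of at least 10 CPM in each length class. Short genes have a median of -0.53 Post-Tx and -0.33 Pre-Tx, and Ahnak stands alone at the right, at -0.68 Post-Tx and 1.93 Pre-Tx.

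Ahnak kept its call in 13 of 16 alternatives before transplant and Anxa1 in 9 of 16. Neither passed on the TPM scale, where Ahnak was at 0.86 and Anxa1 at 1.21 on log2(TPM + 1), or without WT replicate 1, the setting that left 0 members called. Leaving out TCF-1 cKO replicate 1, TCF-1 cKO replicate 2 or WT replicate 3 left 1 member called each. Upper-quartile normalization turned the split of all calls to 636 higher and 2070 lower, against 1451 and 962 as reported, and then S100a13, Lgals1 and Lgals3 were lower and Ahnak alone was higher. A filter at a mean of 10 CPM called the same 3 genes lower and kept both Ahnak and Anxa1 higher, among 977 higher and 1105 lower calls in all.

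The transcripts behind the gene values were stable for most members. S100a4-201, S100a10-201, S100a11-201, S100a13-201 and Anxa2-201 each held at least 97.9% of the TPM of their gene in every library. S100a6 was split between S100a6-201 (54.2% in TCF-1 cKO Post-Tx, 49.2% in WT Post-Tx, 58.3% in TCF-1 cKO Pre-Tx, against 56.6% in WT Pre-Tx, means of 3) and another short protein-coding transcript. Lgals1 was split between the protein-coding Lgals1-201 and Lgals1-202, which is annotated as subject to nonsense-mediated decay. Lgals1-202 held 52.7% of Lgals1 TPM in TCF-1 cKO Post-Tx, against 50.8% in WT Post-Tx, and 56.7% in TCF-1 cKO Pre-Tx, against 54.4% in WT Pre-Tx. The main transcript of Lgals3 held 85.2% to 86.0% of its TPM in the means of the 4 groups. Ahnak and Anxa1 differed from this. Ahnak-202, the transcript of 18100 bases that encodes the giant protein, held 58.2% of Ahnak TPM in TCF-1 cKO Post-Tx, against 56.5% in WT Post-Tx, and 52.0% in TCF-1 cKO Pre-Tx but 18.7% in WT Pre-Tx. Of the estimated counts of Ahnak, on which the test was made, Ahnak-202 held 95.3% to 97.6% in TCF-1 cKO Pre-Tx, against 69.9% to 87.4% in WT Pre-Tx. Its level was 6.26 ± 0.485 TPM in TCF-1 cKO Pre-Tx, against 1.21 ± 0.643 TPM in WT Pre-Tx (SD, n = 3 each). The short transcript Ahnak-205, annotated as subject to nonsense-mediated decay, was at 1.04 ± 0.404 TPM in TCF-1 cKO Pre-Tx, against 2.83 ± 1.45 TPM in WT Pre-Tx. Ahnak-203 was also lower there, at 0.0104 TPM, against 0.498 TPM in WT Pre-Tx. Ahnak-201 was higher, at 2.87 ± 2.13 TPM in TCF-1 cKO Pre-Tx, against 0.935 ± 1.16 TPM in WT Pre-Tx. So was Ahnak-204, at 2.1 ± 0.574 TPM, against 0.845 ± 0.24 TPM. The Pre-Tx difference of Ahnak in TPM therefore did not lie in the long form alone. Anxa1-201 held 99.9% of Anxa1 in TCF-1 cKO Pre-Tx, against 56.1% in WT Pre-Tx, where another coding transcript held 22.8%. These shares were not tested.

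The difference between the genotypes changed with transplant for 4 members, all toward lower values in TCF-1 cKO. These were Ahnak (interaction -2.64 on the log2 scale, SE 0.39, adjusted p = 0.00147), Anxa1 (-1.53, SE 0.48, adjusted p = 0.028), S100a6 (-1.14, SE 0.32, adjusted p = 0.0172) and Anxa2 (-0.84, SE 0.29, adjusted p = 0.0402), by edgeR's quasi-likelihood test over 12 libraries. Of 21434 genes, 11.5% had a lower and 17.1% a higher interaction, and the median was -0.81 over the members and 0.37 over all genes. Over protein-coding genes with a mean of at least 10 CPM, 25.6% had a lower interaction and the median was -0.71. The 2 galectins lay near 0 (Lgals1 -0.09 and Lgals3 -0.18), as did S100a13 (0.11). Ahnak was called lower in 20 of 20 alternatives, S100a6 in 17, Anxa1 in 12 and Anxa2 in 8. Upper-quartile normalization and a filter at a mean of 10 CPM each left 1 member called. So did leaving out WT Post-Tx replicate 3, while leaving out WT Pre-Tx replicate 3 or WT Post-Tx replicate 2 gave 6, and leaving out TCF-1 cKO Pre-Tx replicate 1, WT Pre-Tx replicate 1 or TCF-1 cKO Post-Tx replicate 2 gave 2. Under upper-quartile normalization all genes split into 4865 higher and 720 lower, against 3665 and 2469 as reported.

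Ratios within a library compare partners without a scaling between libraries. S100a10 had 1.49 ± 0.357 times the TPM of Anxa2 in TCF-1 cKO Post-Tx, against 1.76 ± 0.480 times in WT Post-Tx, and 2.17 ± 0.384 times in TCF-1 cKO Pre-Tx, against 2.52 ± 0.0978 times in WT Pre-Tx (SD, n = 3 each). S100a4 had 0.904 ± 0.0510 of the TPM of S100a6 in TCF-1 cKO Post-Tx, against 0.783 ± 0.107 in WT Post-Tx, and 0.359 ± 0.0520 in TCF-1 cKO Pre-Tx, against 0.4995 ± 0.0395 in WT Pre-Tx. Before transplant this ratio was lower in each of the 3 TCF-1 cKO libraries than in any WT library, with p = 0.1 in an exact two-sided permutation test, where 3 libraries against 3 allow no smaller p, and 0.4 when adjusted over 6 comparisons. Lgals1 had 4.83 ± 0.291 times the TPM of Lgals3 in TCF-1 cKO Post-Tx, against 4.61 ± 0.643 times in WT Post-Tx. With 0.1 as the smallest p, this test could call none of the 6 ratios, whatever their values.

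Across the 12 libraries, S100a6 followed the other members most closely, at a Pearson r of 0.992 with their mean, and Anxa1 and Ahnak least, at 0.704 and 0.765. The closest single pair was S100a4 and Lgals1 at 0.994. The 5 other genes whose log2 normalized CPM were most like the mean of the members were Batf, Nkg7, Il2rb, Cst7 and Ptpn7, at r from 0.986 to 0.992. Batf is an AP-1 family transcription factor of activated T cells, and Nkg7 a granule protein of cytotoxic cells. Batf stood at 186 ± 11.4 normalized CPM in TCF-1 cKO Post-Tx, against 368 ± 75.3 in WT Post-Tx, and at 51.0 ± 10.7 in TCF-1 cKO Pre-Tx, against 41.0 ± 5.59 in WT Pre-Tx (SD, n = 3 each). These are descriptions over 12 libraries that share 4 groups, and the points share libraries, depth and the gap between the stages.

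The relatives outside the 10 genes are set against the shares of all genes given above, 14.2% rising and 12.5% falling with transplant in TCF-1 cKO, and 11.6% rising and 10.4% falling in WT. Of the other S100 genes 7 of 11 were tested across the stages and 0 passed by edgeR in either genotype, with 2 at an unadjusted p under 0.05 in TCF-1 cKO, against 0 in WT. DESeq2 and limma voom each called 1 of them higher in TCF-1 cKO, against 0 in WT. The smallest adjusted p (edgeR) was 0.0824 for S100a3 in TCF-1 cKO (log2 fold change 1.89), against 0.328 for S100a8 in WT (-0.47). Of the other annexin genes 9 of 10 were tested, of which 1 rose in TCF-1 cKO (Anxa3, log2 fold change 1.38) and 4 rose in WT, namely Anxa6 (1.14), Anxa5 (1.00), Anxa3 (1.44) and Anxa4 (0.89). Between the genotypes after transplant 2 of 7 were lower in TCF-1 cKO, Anxa6 (-0.80, adjusted p = 0.0424, edgeR) and Anxa11 (-0.92, adjusted p = 0.0439, edgeR). Anxa11 also had a lower interaction (-1.12). Of the other galectin genes 5 of 8 were tested across the stages, and Lgals7 rose in both genotypes (6.06 in TCF-1 cKO, against 5.78 in WT). Lgalsl rose in WT (3.07, adjusted p = 0.00494, edgeR) and Lgals8 fell in TCF-1 cKO (-1.15, adjusted p = 0.0375, edgeR). Lgals8, a galectin that marks damaged vesicles, was higher in TCF-1 cKO before transplant (1.73, adjusted p = 0.0158, edgeR), as Ahnak and Anxa1 were, and had a lower interaction (-1.95).

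The same shares of all genes stand beside the lists that follow. Among protein-coding genes with a mean of at least 10 CPM, 9.86% rose and 24.2% fell with transplant in TCF-1 cKO. In WT 24.5% of them rose and 11.2% fell. Of 14 receptors and ligands of these proteins, 3 rose and 1 fell with transplant in TCF-1 cKO, and 6 rose and 1 fell in WT. Havcr2, the galectin-9 receptor TIM-3, rose by 2.52 in TCF-1 cKO, against 4.17 in WT on the log2 scale, and Plaur, the urokinase receptor, fell by 3.48 in TCF-1 cKO and by 3.6 in WT. Between the genotypes 3.13% of all genes were lower after transplant and 8.52% higher before it. Cd2 was the 1 gene of this list lower in TCF-1 cKO after transplant (-1.07, adjusted p = 0.0208, edgeR), and Ptprc, which encodes the galectin-1 ligand CD45, the 1 higher before it (1.55, adjusted p = 0.0144, edgeR). Of 15 tested partners in membrane repair and the cortical cytoskeleton, 3 were lower in TCF-1 cKO after transplant: the calpain genes Capn1 (-0.92) and Capns1 (-0.80), and Myh9 (-0.78), the myosin heavy chain that the S100a4 product binds. Before transplant Myh9 (0.69) and Vim (0.73), which encodes vimentin, were higher in TCF-1 cKO. With transplant 3 of these 15 rose and 1 fell in TCF-1 cKO and 9 rose in WT, with Vim at 1.14 in TCF-1 cKO, against 2.37 in WT.

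Of 18 genes of the effector and memory state, 10 rose with transplant and 1 fell in TCF-1 cKO, and 14 rose in WT, with Gzmb, the killer protease granzyme B, at 3.59 in TCF-1 cKO, against 4.33 in WT. After transplant 3 of 18 were lower in TCF-1 cKO and none was higher by edgeR: the chemokine gene Ccl5 (-1.65), Cxcr3 (-0.97) and Nkg7 (-0.85). DESeq2 and limma voom each called 7 of the 18 lower and 1 higher. Before transplant 3 were higher, Itgb1 (2.28), Cd44 (0.84) and Itga4 (1.06), and 1 was lower, Emp3 (-0.76). Of the 12 genes of the naive state, 9 fell with transplant in TCF-1 cKO, and 6 fell and 2 rose in WT. Between the genotypes after transplant S1pr1 (-1.17) and Txk (-0.89) of the naive list were lower in TCF-1 cKO by edgeR, so members of both lists were lower there, as 9 of 10 T cell markers were. Of the naive list DESeq2 called 6 lower and 1 higher, and limma voom 4 lower and 1 higher.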

How the data were processed

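The data are 12 libraries of RNA in 4 groups of 3. The authors sorted cells into TRizol, amplified cDNA from total RNA with a SMARTseq kit, sequenced paired ends and ran kallisto 0.46.2. The estimated counts that the authors deposited are read pairs assigned to each transcript, without normalization. The deposited TPM values come from the same counts and the effective length, as kallisto computes them, and the transcript length is from the same files. The labels name mm9 as the build, and the sources used here do not give the transcript set. Of 117497 transcripts, 116428 (99.1%) were matched to GENCODE M21 by identifier without version. The 1069 others, with 0.282% to 0.386% of counts, were left out.

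Estimated counts were summed per gene and rounded. edgeR 4.0.16 in R 4.3.3 was used with TMM factors, its filter on low counts and the quasi-likelihood test, on 6 libraries for each genotype comparison and on 12 for the stages and the interaction, with the Benjamini-Hochberg method over all genes tested and calls at an adjusted p under 0.05. The standard error is the log2 fold change divided by the square root of F. Normalized CPM use the factors of the same fit. Alternatives were upper-quartile factors, DESeq2 1.42.0, limma 3.58.1 (voom, and log2 of TPM plus 1 or 0.1), no filter, a mean of at least 10 CPM, a replicate block, all 12 libraries in 1 fit, a log2 fold change of at least 1 before transplant, and each library left out in turn. The edgeR step was tested on simulated data. Replicate numbers were not used as pairs, since same-numbered libraries of 2 groups correlated at -0.272 to 0.248 in their deviations. Replicates of a group correlated at 0.869 to 0.955 (log2 CPM), and none was a copy of another.

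The 10 members and all gene lists were chosen with earlier results of these data known. All 10 passed the filter in every comparison. Of each other list up to 4 genes with the smallest adjusted p in a comparison are named (1 gene that this rule also takes is not reported here), besides the 5 genes most like the members and the checks Tcf7, Cd4, Cd8a, Cd3e and Cd79a. The counts of S100a5, S100a8 and S100a9 and the pseudogenes were chosen after their place or values were seen. Promoter windows are from RefSeq, GRCm38.p6. Python 3.11.15 with pandas 2.3.3 and matplotlib 3.10.9 drew the figures.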

Additional observations from a re-analysis of the deposited data

Results flagged for a closer look

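The genotype difference differed between the stages for 4 members by the test of the interaction itself. Of 21434 genes tested, 11.5% had a lower and 17.1% a higher interaction. Among protein-coding genes with a mean of at least 10 CPM, 25.6% had a lower one, and their median was -0.71. The genotype difference after transplant minus that before it was -2.64 for Ahnak, -1.53 for Anxa1, -1.14 for S100a6 and -0.84 for Anxa2 on the log2 scale, with adjusted p values of 0.00147, 0.028, 0.0172 and 0.0402 (edgeR). For Ahnak and Anxa1 the Pre-Tx difference was above 0 and passed on its own, and for S100a6 the Post-Tx difference was below 0 and passed on its own. Anxa2 passed at neither stage, and its interaction passed in 8 of 20 alternatives. With 3 libraries per group, no single library could be examined as an extreme of its group.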

How the results depend on the processing

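For transplant in WT, 10 members were called under all 8 other settings and with each of 12 libraries left out. In TCF-1 cKO the count was 7 to 10 under the other settings and 7 to 8 with a library left out, and no value changed sign. Over all genes 3037 higher and 2676 lower in TCF-1 cKO became 6455 and 1320 on log2(TPM + 1), and 2483 and 2223 in WT became 3899 and 1287. After transplant, the count of members called between the genotypes, 3 as reported, was 1 under upper-quartile normalization, a mean CPM of at least 10, log2(TPM + 1), log2(TPM + 0.1) and all 12 libraries in 1 fit, 8 by DESeq2 and 7 by limma voom, all lower in TCF-1 cKO, and 0 to 8 with a library left out. Over all genes the reported 679 higher and 604 lower became 983 and 114 on log2(TPM + 1), and 6 genes in all were called without TCF-1 cKO replicate 2. Before transplant the count, 2 as reported, was 4 under upper-quartile normalization, 5 at a mean CPM of at least 10, 0 on either TPM scale and 0 to 2 with a library left out, and 14 of all genes were called without WT replicate 1. Over all genes 1451 higher and 962 lower became 1363 and 531 on log2(TPM + 1). The interaction count, 4 as reported, was 1 under upper-quartile normalization and at a mean CPM of at least 10, and 1 to 6 with a library left out. The causes of these shifts were not tested.

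Signs turned only for members that passed in neither direction as reported. Before transplant S100a6 was at 0.021 by DESeq2, 0.043 by voom, 0.324 and 0.326 on log2(TPM + 1) and log2(TPM + 0.1), 0.07 without a filter, 0.034 with the replicate block, 0.041 in the fit of 12 libraries, and -0.155 to 0.249 with a library left out. S100a10 was at 0.003 by DESeq2, 0.279 on both TPM scales, 0.053 without a filter, 0.025 in the fit of 12 libraries and -0.061 to 0.079 with a library left out. S100a11 was at 0.145 on both TPM scales and -0.267 to 0.014 with a library left out, and Anxa2 at -0.118 under upper-quartile normalization and -0.021 at a mean CPM of at least 10. After transplant Anxa1 was at 0.105 at a mean CPM of at least 10 and -0.493 to 0.031 with a library left out. For the interaction, upper-quartile normalization gave 0.232 for S100a4, 0.608 for Lgals1 and 0.53 for Lgals3, and a mean CPM of at least 10 gave 0.15, 0.533 and 0.443. Lgals1 was at 0.034 and 0.035 on the TPM scales and -0.467 to 0.09 with a library left out, and S100a13 at -0.007 by DESeq2, -0.171 without a filter and -0.239 to 0.278 with a library left out.

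The replicate block called 9 members lower after transplant and 3257 of all genes, against 3 and 1283 without it. It called 2 before transplant, 7 and 10 for transplant in TCF-1 cKO and WT, and 3 for the interaction. The 18 same-numbered pairs of libraries from different groups correlated at -0.272 to 0.248 in their deviations, so the numbers were not read as pairs. Depth was at least 17103415 counts in each library, and what more depth would change was not tested.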
